A study of Homo sapiens with 2 samples.

Results

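The transcriptional responses to SUB1 siRNA 1 and SUB1 siRNA 2 were compared directly in PC3, an established prostate cancer cell line derived from a metastasis. Each siRNA had 1 dual-colour array, and both of these arrays were used, of 2 in the series. On each, Cy3 carried RNA of cells given Non-T siRNA (a non-targeting control duplex) and Cy5 carried RNA of cells given 1 SUB1 duplex, without a dye swap. All groups were PC3 cells transfected again 24 h after the first transfection and harvested at 72 h. The measure was the log2 ratio of Cy5 over Cy3 with siRNA 2 minus that with siRNA 1, so a positive difference means a higher ratio with siRNA 2. It was obtained for 19218 genes, from 25673 of 41000 probes that gave signal above background.

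A SUB1 siRNA is loaded into the RNA interference machinery and guides the cleavage of SUB1 mRNA, which codes for a transcriptional coactivator that binds single-stranded DNA. Any duplex can also lower other transcripts that pair with its guide strand in part, and double-stranded RNA can be read by cellular sensors that start the interferon response. Duplexes of different sequence against 1 target are therefore compared with each other. There was 1 array per siRNA and no biological replicate, so no test was made and no p-value is given. A gene was counted where the difference reached 2-fold (1 on the log2 scale), which is the fold used in the study, and the difference in the Cy3 channel between the arrays served as the null spread. Whether both arrays carried the same Non-T siRNA RNA is not stated in the sources used here. The Cy3 spread may therefore leave out variation between cultures. Differences of RNA extraction, labelling, hybridisation and duplex cannot be told apart with 1 array per siRNA.

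The knockdown of SUB1 was of the same size with both duplexes. The brightest SUB1 probe (hg18 chr5:32627546-32634880, the position given on the array, which spans an intron) had log2 Cy3 intensities of 13.09 and 12.89 and log2 Cy5 intensities of 9.79 and 9.63 on the siRNA 1 and siRNA 2 arrays. The log2 ratios were -3.30 with siRNA 1 and -3.26 with siRNA 2, or 9.84-fold and 9.59-fold below Non-T siRNA, and their difference was 0.04. The other 3 SUB1 probes had differences of 0.26, 0.19 and 0.24. No SUB1 probe approached a 2-fold difference between the duplexes.

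Outside SUB1, 125 genes were at least 2-fold higher with siRNA 2 than with siRNA 1 (0.650% of those measured) and 117 were at least 2-fold lower (0.609%). In the Cy3 channel, which held Non-T siRNA on both arrays, only 2 genes were at least 2-fold higher (0.0104%) and 3 lower (0.0156%) on the siRNA 2 array. The SD across genes was 0.31 for the difference of ratios, 0.31 for the Cy5 channel alone and 0.12 for the Cy3 channel. Of the genes at least 2-fold different in ratio, 112 of the 125 and 99 of the 117 were also at least 2-fold different in Cy5 alone. The wider spread was thus in the channel that held the SUB1 siRNA samples. The 10 control transcripts spiked into the labelling reactions at known proportions gave ratios from -2.66 to 3.32 with siRNA 1, and their differences between the arrays were all between 0.09 and 0.14. When the difference was centred on these spike-ins in place of the genes, 85 genes were at least 2-fold higher and 171 lower, so that 33.2% of the counted genes were higher in place of 51.7%; the median of all genes was then -0.12.

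**Figure D1:**
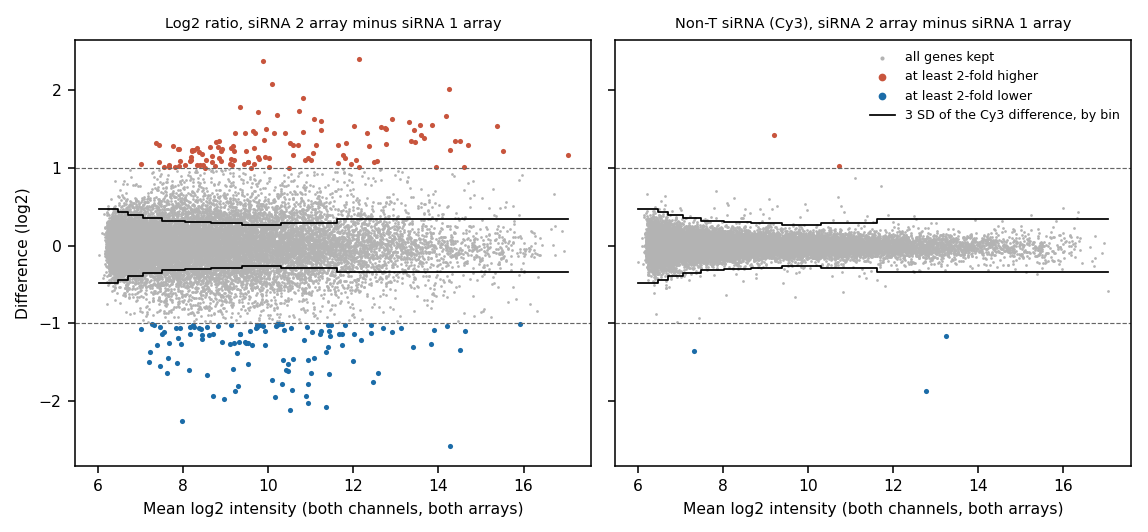
Difference between the arrays (log2, siRNA 2 array minus siRNA 1 array) against mean log2 intensity for the 19218 genes, as log2 ratios (left) and in the Cy3 channel of Non-T siRNA alone (right). Dashed lines mark 2-fold and black steps mark 3 SD of the Cy3 difference in 10 bins of intensity; 125 and 117 genes lie past the dashed lines on the left and 2 and 3 on the right.

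The Cy3 spread narrowed from an SD of 0.16 in the dimmest bin of genes to 0.09 in the eighth bin, while the spread of the ratio difference widened from 0.18 to 0.38 over the same bins. No gene in the dimmest 2 bins reached 2-fold, and 3.12% of the genes in the brightest bin did. All counted genes were well above background in Cy5 on both arrays. Of these genes, 4 had a Cy3 difference past 3 SD of their bin. Probes spotted 10 times (209 probes) gave median spot SDs of 0.08 (siRNA 1) and 0.07 (siRNA 2), which is a technical error only. Near the threshold, PI4K2B and IQCN were just inside, the farther at a difference of 1.01, and ARRDC3, RND3 and FAM117A were just outside at 0.99. On the lower side EGLN1, ALAD and KCNN4 were inside, the farthest at -1.01, and ACOX2, ADGRF1 and SPACA9 were outside, the farthest at -0.98.

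The counted genes were split by which duplex departed from Non-T siRNA. Over all 19218 genes, 39 were at least 2-fold above and 117 at least 2-fold below Non-T siRNA with siRNA 1. With siRNA 2, 118 were above and 205 below, and the split is to be read beside these totals. Among the 125 genes higher with siRNA 2, 42 were at least 2-fold below Non-T siRNA with siRNA 1 only, 37 were at least 2-fold above it with siRNA 2 only, and 46 reached 2-fold with neither. Among the 117 genes lower with siRNA 2, 48 were at least 2-fold below Non-T siRNA with siRNA 2 only, 14 were at least 2-fold above it with siRNA 1 only, and 55 reached 2-fold with neither. No gene was past 2-fold in opposite directions with the duplexes. Since the Cy3 reference enters both ratios, these counts only locate the difference.

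SARNP, which codes for an mRNA export factor of the TREX complex, had the largest difference upward. Its probe (hg18 chr12:54437532-54437591) had log2 Cy3 intensities of 12.71 and 12.60 on the siRNA 1 and siRNA 2 arrays, and log2 Cy5 intensities of 10.48 and 12.77. The Cy5 value of siRNA 1 stood alone below the other 3. The ratio was -2.23 with siRNA 1, or 4.69-fold below Non-T siRNA, and 0.17 with siRNA 2, a difference of 2.40. The other SARNP probe gave -2.08 and 0.15. NARS1, the cytoplasmic asparaginyl-tRNA synthetase, had the same form with log2 Cy3 intensities of 10.63 and 10.66 and Cy5 intensities of 8.49 and 10.59, and a difference of 2.07. ARL6IP6, a membrane protein that binds a small GTPase, had ratios of -1.83 and -0.05.

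Further genes were low with siRNA 1 and near Non-T siRNA with siRNA 2. HSD17B10, a mitochondrial dehydrogenase that is also a subunit of mitochondrial RNase P, had ratios of -1.79 and -0.19. EEF1AKMT4, a lysine methyltransferase of an elongation factor, had -1.46 and 0.17. IGFBP3, a secreted protein that binds insulin-like growth factors, was measured by 10 spots and had -1.41 and 0.32. The difference was 1.72, with a standard error of 0.03 from the spots. The dimmer second IGFBP3 probe had -0.94 and -0.11, a difference of 0.83, under 2-fold. PNRC2, an adaptor in mRNA decapping and nonsense-mediated decay, had -1.18 and 0.54.

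Genes with near-identical copies formed a further set of this kind, and for these the probes cannot be assigned to 1 transcript. RPS10, a protein of the small ribosomal subunit, and the sequences that the array describes as its copies were covered by 12 kept probes. Under siRNA 1 their ratios ran from -1.63 to -0.97, and under siRNA 2 from -0.14 to 0.23, without overlap, and 11 of the 12 differed at least 2-fold. ANXA2, a phospholipid-binding annexin, and its copies were covered by 7 probes, whose ratios were -1.92 to -0.84 under siRNA 1 and -0.38 to -0.09 under siRNA 2, and 6 of them differed at least 2-fold. These probes share sequence and are not independent measurements. They account for 10 of the 125 genes counted as higher, among them ANXA2P1, an ANXA2 pseudogene with a difference of 1.54. Over all 25673 kept probes, 156 were at least 2-fold higher with siRNA 2 and 139 lower. The set was put together after the values were seen, so its counts and lack of overlap are not separate support.

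Among genes at least 2-fold above Non-T siRNA with siRNA 2, the interferon-induced antiviral enzyme gene RSAD2 had the largest difference. Its probe (hg18 chr2:6954651-6954710) had log2 Cy3 intensities of 9.27 and 9.23 on the siRNA 1 and siRNA 2 arrays and log2 Cy5 intensities of 9.32 and 11.65. Only the siRNA 2 sample stood apart. The ratio was 0.05 with siRNA 1 and 2.42 with siRNA 2, or 5.34-fold above Non-T siRNA, and the difference was 2.37. IFIT2, which binds viral RNA and limits its translation, had log2 Cy3 intensities of 13.90 and 13.59 and Cy5 intensities of 13.88 and 15.58, with a difference of 2.02. IDO1, the interferon-inducible enzyme that degrades tryptophan, had ratios of -0.08 and 1.82, and OASL, an oligoadenylate synthetase-like protein, had -0.19 and 1.36.

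A cytokine and a stress gene were on opposite sides of Non-T siRNA. The inflammatory cytokine IL6, measured by 10 spots, had a ratio of -0.76 with siRNA 1 and 0.93 with siRNA 2, a difference of 1.68 with a standard error of 0.04 from the spots. TRIB3, a pseudokinase induced by the ATF4 stress pathway, had -0.97 and 0.69; its second probe had a difference of 1.02.

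**Figure D2:**
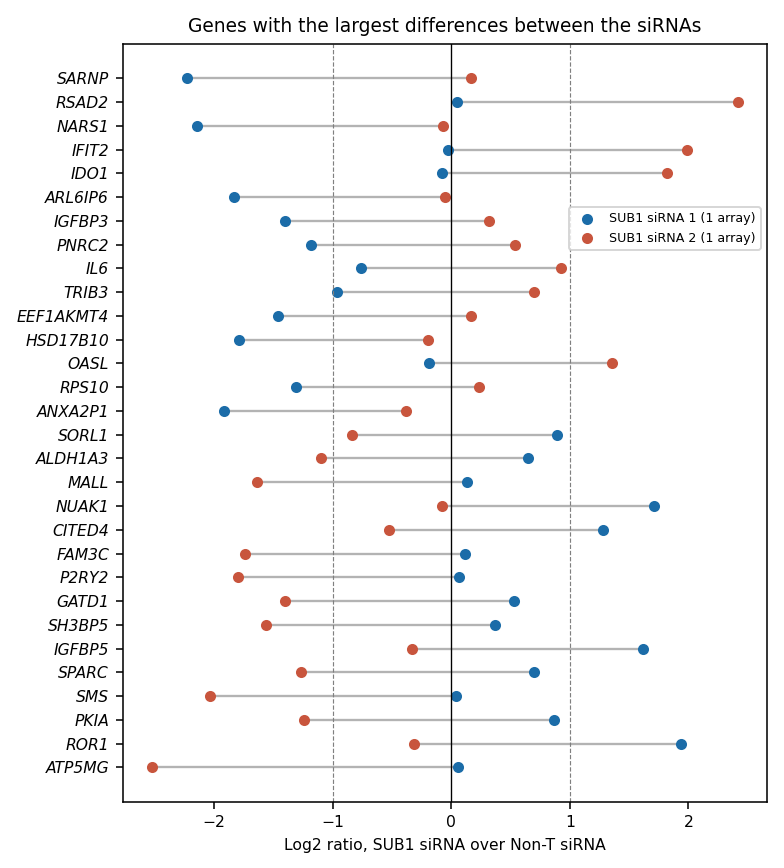
Log2 ratios over Non-T siRNA with SUB1 siRNA 1 (blue) and SUB1 siRNA 2 (red), 1 array each, for the 15 genes with the largest increases and the 15 with the largest decreases among genes with a symbol. SARNP lies at -2.23 with siRNA 1 and 0.17 with siRNA 2, and ATP5MG at 0.06 and -2.52.

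ATP5MG, a subunit of the mitochondrial ATP synthase, had the largest difference of all. Its probe (hg18 chr11:117784978-117785037) had log2 Cy3 intensities of 14.83 and 14.94 on the siRNA 1 and siRNA 2 arrays and log2 Cy5 intensities of 14.88 and 12.41. Here the siRNA 2 sample stood alone below the other 3. The ratio was 0.06 with siRNA 1 and -2.52 with siRNA 2, or 5.75-fold below Non-T siRNA. The second ATP5MG probe gave 0.20 and -1.24, a difference of -1.44. SMS, the spermine synthase, had ratios of 0.04 and -2.03, and its second probe had a difference of -1.38.

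P2RY2, a receptor for extracellular nucleotides, had ratios of 0.07 with siRNA 1 and -1.80 with siRNA 2. FAM3C, a secreted factor linked to epithelial to mesenchymal transition, had 0.11 and -1.74, and its 3 probes had differences of -1.86, -1.47 and -1.31. MALL, a membrane raft protein of the MAL family, had 0.13 and -1.64. SH3BP5, an exchange factor for RAB11, had 0.37 and -1.56, and GATD1 had 0.53 and -1.40. As the mean of their probes, MALL and GATD1 had smaller differences of -1.08 and -1.24. All of these were lower with siRNA 2 and within 2-fold of Non-T siRNA with siRNA 1.

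Other genes lower with siRNA 2 than with siRNA 1 were instead raised over Non-T siRNA by siRNA 1. ROR1, a receptor for Wnt ligands, had log2 Cy3 intensities of 7.45 and 7.68 and Cy5 intensities of 9.39 and 7.36, so that the siRNA 1 sample alone was high. Its ratios were 1.94 and -0.31. NUAK1, an AMPK-related kinase, had 1.71 and -0.07, and IGFBP5, a further binding protein of insulin-like growth factors, had 1.62 and -0.33. All 3 IGFBP5 probes had differences between -2.33 and -1.38. CITED4, a CBP/p300-interacting transactivator, had 1.28 and -0.53.

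Further genes among the largest decreases lay on opposite sides of Non-T siRNA without reaching 2-fold with siRNA 1. PKIA, an inhibitor of protein kinase A, had ratios of 0.87 and -1.24. SPARC, a matricellular glycoprotein, had 0.70 and -1.27. SORL1, a sorting receptor, had 0.90 and -0.83. ALDH1A3, which makes retinoic acid, had 0.65 and -1.10; its dimmer second probe had a difference of -0.17, and the mean of both probes, -0.96, was under 2-fold.

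Of the 125 higher genes, 39 had other kept probes (50 in all); 46 of these were higher with siRNA 2 and 21 at least 2-fold so. Of the 117 lower genes, 41 had other kept probes (55 in all); 54 of these were lower and 14 at least 2-fold so. Over all genes with more than 1 probe, 3310 of 6455 other probes were higher with siRNA 2.

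**Figure D3:**
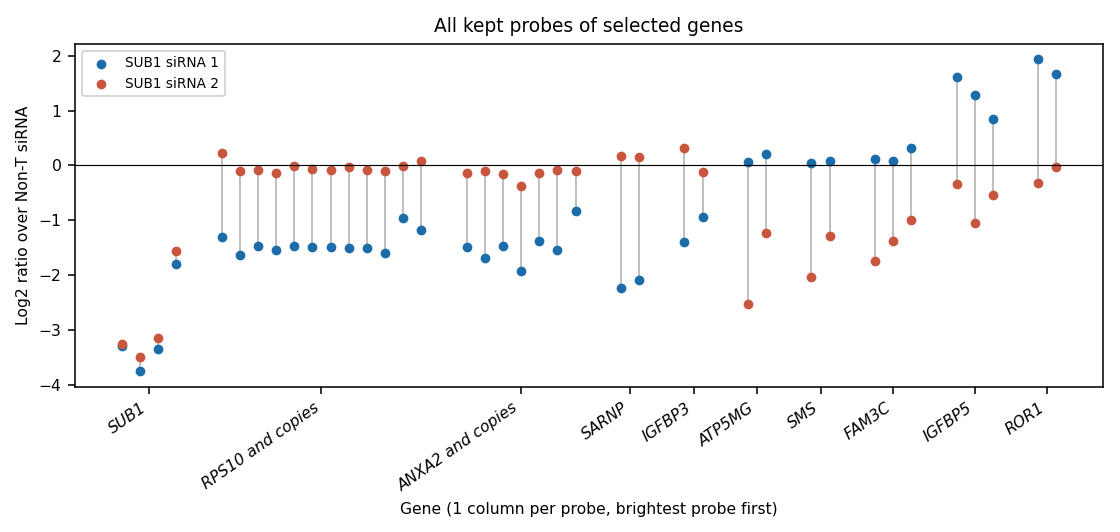
Log2 ratios over Non-T siRNA for every kept probe of 10 genes or families, with SUB1 siRNA 1 in blue and SUB1 siRNA 2 in red. The 4 SUB1 probes differ by 0.04 to 0.26 between the duplexes, whereas the RPS10 probes lie at -1.63 to -0.97 for siRNA 1 and at -0.14 to 0.23 for siRNA 2.

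Among the 29 gene lists examined, the interferon-stimulated genes had the most members at 2-fold by count, in one of the longer lists. By share they were not first, since 5 of 16 interferon-gamma type genes were higher, and of 10 annexins 2 were higher and 1 lower. In the interferon pathway, sensors of double-stranded RNA induce interferons, which act through receptors and STAT proteins to switch on many antiviral and antigen presentation genes. Of the interferon-stimulated list, 63 of 65 genes were measured, and 15 of these were at least 2-fold higher with siRNA 2 and none lower, against 0.650% and 0.609% of all genes. The count was 14 in Cy5 signals alone and 12 after spike-in centring. In all, 58 of the 63 were higher by any amount, against 49.6% of all genes. The median difference was 0.65, and the list had median ratios of -0.02 with siRNA 1 and 0.58 with siRNA 2. With siRNA 2, 13 members were at least 2-fold above Non-T siRNA, against 118 of all 19218 genes. With siRNA 1 none was, against 39 of all genes, so none of 63 is near the share over all genes. Besides RSAD2, IFIT2 and OASL, RTP4, a chaperone of G-protein-coupled receptors, had ratios of 0.67 and 2.01.

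The genes typical of interferon-gamma had the same direction in every measured member (16 of 19 measured, 16 higher with siRNA 2). Of these, 5 were at least 2-fold higher, against 0.650% of all genes, and the median difference was 0.67. Besides IDO1, the guanylate-binding proteins GBP1 and GBP5 had differences of 1.30 and 1.21, and CD274, the checkpoint ligand PD-L1, had 1.24. Of the MHC class I presentation genes, 18 of 19 measured were higher with siRNA 2, against 49.6% of all genes, and the median was 0.65. HLA-F, a non-classical class I heavy chain, reached 2-fold at 1.08, and did so with other settings except spike-in centring (0.97). The immunoproteasome subunit PSMB8, the heavy chain HLA-B and the peptide transporter TAP1 had 0.95, 0.92 and 0.90.

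Of the double-stranded RNA sensing genes, 12 of 13 were measured and the median difference was 0.28. Of the 12, 8 were higher, against 49.6% of all genes, and 2 were at least 2-fold higher, against 0.650%. IFIH1, the sensor MDA5, had ratios of 0.24 and 1.37, and TLR3, the endosomal sensor, had 0.04 and 1.13, with a difference of 1.09 that was 0.98 after spike-in centring. RIGI, a further cytoplasmic sensor, had a difference of 0.95 and IRF7, the factor that amplifies interferon transcription, 0.62. Several sensors are themselves induced by interferon, and RIGI, IFIH1 and IRF7 are in the interferon-stimulated list too.

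Of the interferon genes themselves only 4 of 9 gave signal, and none reached 2-fold. IFNE, IFNB1 and IFNL1 were not well above background in Cy3 on either array, so their differences are not given. The receptors and JAK-STAT genes (17 of 19 measured) had a median of 0.25 and no member at 2-fold. None at 2-fold in either list is near the 0.650% higher and 0.609% lower of all genes. The largest difference among the receptors and JAK-STAT genes was 0.82 for IRF1, a transcription factor induced by interferon-gamma. The interferon-lambda receptor IFNLR1 and the signal transducer STAT2 both had 0.46, the latter 0.25 in Cy5 alone.

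Markers of leukocytes, which also express many of these genes, were checked beside the lists. Of 6 leukocyte markers, 3 were well above background in all 4 channels and 2, among them PTPRC, in none. The differences of those measured ran from 0.01 to 0.87, the highest being CD68, and their part in the interferon genes was not tested. All 7 PC3 epithelial markers were above background in all channels, with differences from -0.43 to -0.12. Of the 5 genes that PC3 cells are held to lack or barely express, 2 were above background in no channel, while 1 or more of the 3 probes each of KLK2 and KLK3 gave signal in all 4 channels.

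The promoters of interferon-induced genes often carry the interferon-stimulated response element, bound by a complex of STAT proteins and IRF9. Promoter sequences (250 bases before to 50 after the start, RefSeq, GRCh38.p14) were at hand for 7529 of the measured genes. The letters GAAANNGAAA were searched on both strands. They were found in 2.90% of these promoters, in 13 of 63 promoters of genes at least 2-fold higher with siRNA 2 and in 0 of 53 of genes at least 2-fold lower. All 13 belonged to members of the interferon-related lists above, of whose 2-fold higher members 14 had a promoter. The share of 13 of 63 thus restates list membership and is not separate support. In the interferon-stimulated list, 23 of 35 promoters held them. Among the 2-fold higher genes, 8 of 19 promoters held them where siRNA 2 was past 2-fold above Non-T siRNA, and 0 of 16 where siRNA 1 was past 2-fold below it. With so few promoters, the counts of 0 of 16 and 0 of 53 are near the 2.90% of all promoters. Matches describe the sequence and are not shown to be bound.

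A few promoters are shown because they belong to genes of the interferon lists that were at least 2-fold higher with siRNA 2 and hold the element before the start; capitals mark the matches, which can overlap and can lie on the other strand. They lie at chr3:187368323-187368384 (RTP4, plus strand), chr1:89065306-89065355 (GBP1, minus), chr15:88638927-88638976 (ISG20, plus), chr1:1013364-1013419 (ISG15, plus), chr19:17405725-17405780 (BST2, minus) and chr10:89392487-89392549 (IFIT1, plus) of GRCh38.p14, each upstream of the start and outside the transcribed part, printed 5′ to 3′ along the gene.
RTP4: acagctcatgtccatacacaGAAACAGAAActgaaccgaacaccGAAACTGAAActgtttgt
GBP1: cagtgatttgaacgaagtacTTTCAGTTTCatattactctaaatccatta
ISG20: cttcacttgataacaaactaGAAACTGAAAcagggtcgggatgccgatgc
ISG15: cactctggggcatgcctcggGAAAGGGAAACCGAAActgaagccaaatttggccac
BST2: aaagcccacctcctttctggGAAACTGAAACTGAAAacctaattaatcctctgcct
IFIT1: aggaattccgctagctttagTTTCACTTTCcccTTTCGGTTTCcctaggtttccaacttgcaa

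The genes of these promoters had differences of 1.34 (RTP4), 1.30 (GBP1), 1.21 (ISG20, an exonuclease of viral RNA), 1.16 (ISG15, a ubiquitin-like modifier), 1.10 (BST2, which tethers virions) and 1.01 (IFIT1, a sensor of uncapped RNA). RTP4 and GBP1 kept 2-fold in Cy5 alone and after spike-in centring. The Cy3 signal of ISG15 differed by -0.58 between the arrays, and its Cy5 signal alone by 0.58, under 2-fold. ISG20 had 0.92 in Cy5 alone. After spike-in centring BST2 and IFIT1 had 0.98 and 0.90. The median of the NF-kB cytokine list (22 of 24 measured) had the opposite sign to that of the interferon-stimulated list, at -0.14. Of the 22, IL6 was at least 2-fold higher and none lower, against 0.650% and 0.609% of all genes. By any amount, 14 members were lower, against 9688 of all 19218 genes. The chemokine CCL5, induced by both pathways, had a difference of 0.78, which was 1.57 with Feature Extraction's processed signals. The neutrophil chemokines CXCL8 and CXCL5 had -0.75 and -0.63, the latter -0.34 as the mean of its probes.

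The ATF4 stress genes, which supply amino acids and tRNA charging and arrest growth when translation is blocked, were higher with siRNA 2 in 27 of 28 measured, with a median of 0.37. By any amount, 49.6% of all genes were higher. Of the measured ATF4 stress genes, 3 were at least 2-fold higher and none lower, against 0.650% and 0.609% of all genes. None lower among 28 is near the share over all genes. The list lay at a median ratio of -0.16 with siRNA 1 and 0.33 with siRNA 2. Besides TRIB3, the stress-induced chromatin protein NUPR1 had ratios of 0.04 and 1.32, DDIT4, an inhibitor of mTORC1, had 0.51 and 1.68, and the mitochondrial folate enzyme MTHFD2 had -0.45 and 0.50. Endoplasmic reticulum chaperone genes had a median of 0.22, with 12 of 18 higher. None of the 18 reached 2-fold, which is near the shares over all genes. HERPUD1, a factor of protein degradation at that membrane, had 0.87, and MANF, XBP1 and DNAJB9 had 0.80, 0.73 and 0.72.

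Metallothioneins, small proteins that buffer zinc and copper, were lower with siRNA 2 in all 10 measured genes of the list of 11, which also holds the zinc exporter SLC30A1. Of all 19218 genes, 9688 were lower. The median ratios of the list were 0.28 with siRNA 1 and -0.54 with siRNA 2, and the median difference was -0.84. Differences ran from -1.05 to -0.06. MT1F, the only member at 2-fold, had ratios of 0.49 and -0.56, and MT1B, MT1X and MT1G had differences of -0.97, -0.85 and -0.85. These genes are close copies and their probes may detect each other. In Cy5 signals alone the median was -0.70.

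**Figure D4:**
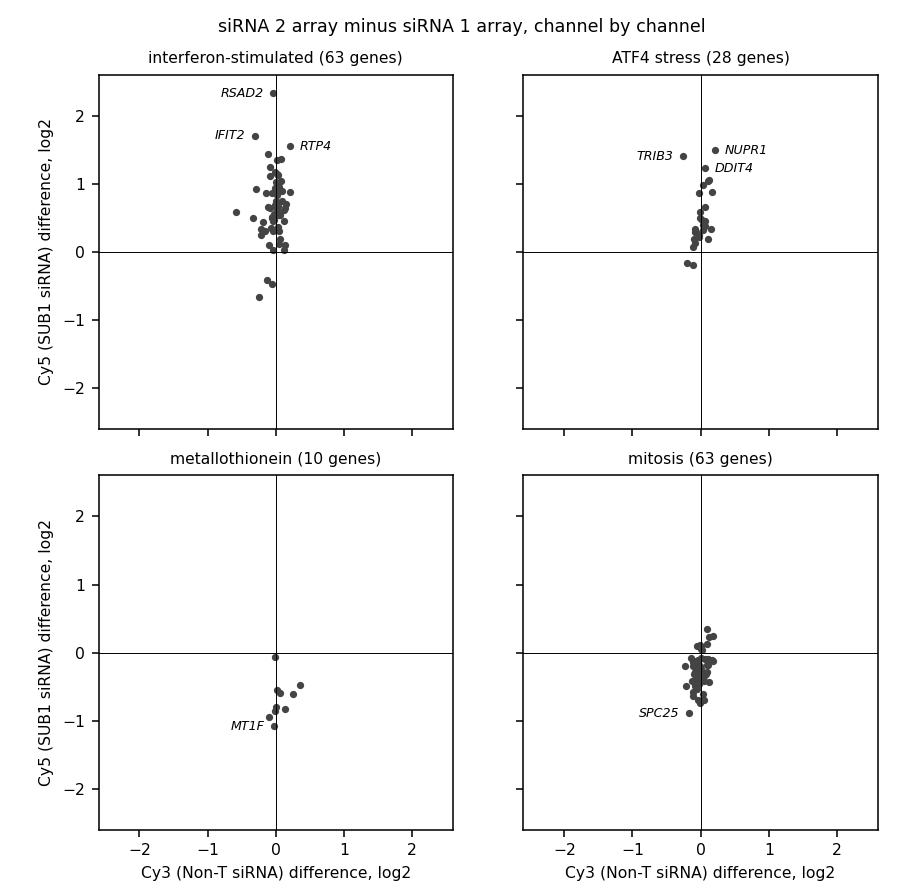
Difference between the arrays (log2, siRNA 2 array minus siRNA 1 array) in the Cy3 channel of Non-T siRNA (horizontal) and in the Cy5 channel of SUB1 siRNA (vertical) for the genes of 4 lists, each point a gene. The points spread along the Cy5 axis, as for RSAD2 at 2.33 in Cy5 and -0.03 in Cy3.

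Most proliferation genes were lower with siRNA 2, each by less than 2-fold. Mitosis genes, which build the spindle and separate chromosomes, were all measured (63 of 63). None reached a 2-fold difference, which is near the 0.650% higher and 0.609% lower of all genes. Yet 52 were lower with siRNA 2 and the median was -0.27. Of all 19218 genes, 9688 were lower. The list lay below Non-T siRNA with both duplexes, at median ratios of -0.83 and -1.07. At least 2-fold below Non-T siRNA were 15 members with siRNA 1 and 39 with siRNA 2, against 117 and 205 of all 19218 genes. The largest differences were -0.74 for CDCA8 of the chromosomal passenger complex, -0.73 for the phosphatase CDKN3, -0.72 for the kinetochore gene SPC25 and -0.72 for the kinase CDK1, which had a standard error of 0.03 from 10 spots. DNA replication genes were also all measured (49 of 49), with 41 lower, against 9688 of all 19218 genes, and a median of -0.20. None of the 49 reached 2-fold, which is near the shares over all genes. The cyclin gene CCNE1 had -0.78, the ligase LIG1 -0.78, the helicase subunit MCM5 -0.61 and the methylation factor UHRF1 -0.60.

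The letters TTTGAA of the cell cycle homology region were in 33 of 45 promoters of mitosis genes and in 9.84% of all promoters; they were also in 13 of 63 promoters of genes at least 2-fold higher with siRNA 2 and in 2 of 53 of genes at least 2-fold lower. The Cy3 SD of 0.12 covers only part of the error of single genes of these lists. It compares Non-T siRNA channels that may share 1 RNA, and holds no variation between transfections with a SUB1 siRNA. Among the genes discussed in the study, the mitotic kinase PLK1 had ratios of -1.41 and -1.72 and a difference of -0.31 by its brighter probe, and -0.16 and -0.30 with a difference of -0.14 by the other. The checkpoint kinase BUB1B had -0.94 and -1.34 and a difference of -0.40. CDKN1B, an inhibitor of cyclin-dependent kinases, had 0.71 and 1.21 and a difference of 0.50 with a standard error of 0.04 from 10 spots, but its dimmer second probe had 0.07. The transcription factor MYC had -0.57 and -0.16 by its brighter probe, a difference of 0.41, and 0.42 and 0.10 by the other, a difference of -0.32, so its direction depended on the probe.

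Replication-dependent histone genes (28 of 31 measured) had no member at 2-fold, which is near the 0.650% higher and 0.609% lower of all genes. The median was 0.24, and 18 were higher, against 49.6% of all genes. The largest differences were those of H2A genes, with 0.71 for H2AC18, 0.66 for H2AC6, 0.57 for H2AC8 and 0.54 for H2AC20 (0.35 as the mean of its probes). Of the cell-cycle inhibitor genes none of 16 reached 2-fold, again near the shares over all genes. The stress-responsive GADD45B had 0.78, CCNG1, a p53 target, 0.71 and the INK4 inhibitor CDKN2C -0.42. In the BCL2 family, the BH3-only gene PMAIP1 reached 2-fold, with ratios of -0.69 and 0.44 and a standard error of 0.03 from 10 spots. BAK1, an effector of apoptosis, had 0.89, BIK 0.60 and BMF -0.53 (-0.17 in Cy5 alone), and the median of the 16 was 0.15.

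**Figure D5:**
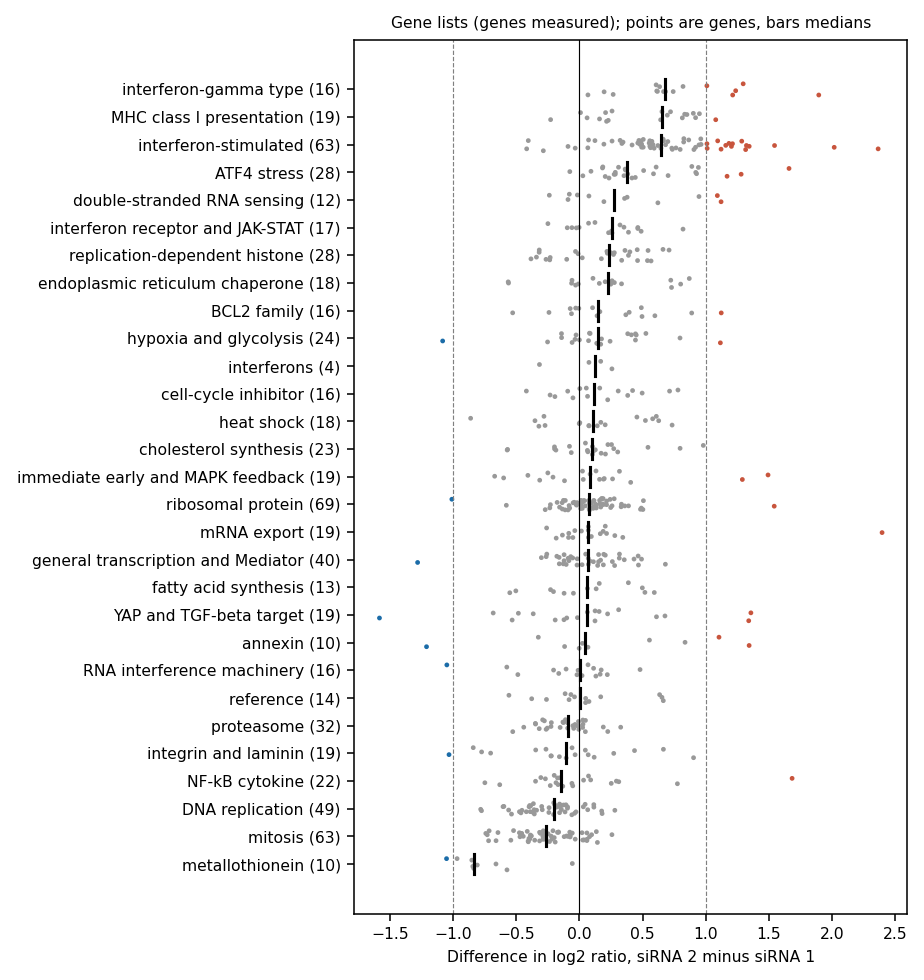
Difference in log2 ratio between the siRNAs (siRNA 2 minus siRNA 1) for the measured genes of 29 lists, each point a gene and each black bar the median of a list; points past 2-fold are red (higher) or blue (lower). Medians run from -0.84 for metallothioneins to 0.67 for interferon-gamma type genes, and the reference genes have 0.00.

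Lists of basic machinery stayed near the median of all genes, which was 0.00. Ribosomal protein genes had a median of 0.08 (69 of 70 measured), with RPS10 the only member at least 2-fold higher and RPS2 the only one lower, at -1.01; RPS2 was at -0.58 as the mean of its probes. RPS12 had -0.58 and RPL13A 0.51. Proteasome genes had a median of -0.09 in 32 of 32 measured, and the lowest members were PSMD2 at -0.53, PSMB4 at -0.44, PSMA1 at -0.35 and PSMB3 at -0.35. For mRNA export, SARNP was alone past 2-fold among 19 genes, and the next largest were NXF1 at 0.34, ENY2 at 0.28 (reversed to -0.15 as the mean of its probes) and DDX39A at -0.26.

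Among 40 measured general transcription and Mediator genes, MED27, a Mediator subunit, was alone at 2-fold, with ratios of -0.10 and -1.38 and a difference of -1.28, which was -2.64 with Feature Extraction's processed signals. GTF2B, the factor TFIIB, had a difference of 0.68, and MED28 and MED19 had 0.49 and 0.47. Of the RNA interference machinery, TNRC6C, a scaffold of Argonaute silencing, was 2-fold lower with ratios of 0.23 and -0.82; DICER1, which processes microRNA precursors, had -0.58, TNRC6B -0.49 and TNRC6A 0.48, and the median of the 16 genes was 0.00.

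Single members of other lists reached 2-fold in both directions. In the annexins, ANXA2 had a difference of 1.34 and ANXA10 1.11 (0.99 after spike-in centring), while ANXA5, with ratios of 0.02 and -1.19, had -1.21; ANXA7 had 0.84. In hypoxia and glycolysis, ANKRD37, a target of hypoxia-inducible factor, had 1.12 (0.78 in Cy5 alone) and the glycolytic enzyme ENO1 -1.08, with 0.80 for PFKFB3 (0.28 as the mean of its probes) and 0.53 for CA9. Of the heat shock genes none of 18 reached 2-fold, which is near the 0.650% higher and 0.609% lower of all genes. CHORDC1 had -0.86, HSPA1A 0.73, HSPH1 0.63 and HSPD1 0.61.

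Cholesterol and fatty acid synthesis genes had medians of 0.10 and 0.06. No member reached 2-fold, which is near the 0.650% higher and 0.609% lower of all genes. The reductase DHCR7 had -0.57. For fatty acids, the desaturase SCD had 0.59, SREBF1, a regulator of lipid synthesis, 0.52, GPAM -0.55 and ELOVL5 -0.50. As the mean of their probes SCD and ELOVL5 had 0.38 and -0.29. The reference genes had a median of 0.00, yet B2M and YWHAZ had 0.65 and 0.63; B2M is also a gene of MHC class I presentation. GAPDH had -0.08 and ACTB -0.38.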

How the data were processed

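Total RNA was hybridised to Agilent Whole Human Genome arrays. From the scans the authors made Agilent Feature Extraction 9.5 files and deposited, per spot, the intensity of both channels and its local background, not yet normalized; per the file headers the probe positions are hg18. The authors also deposited a table of log2 ratios per probe, loess-normalized; its direction was checked against log2 ratios of Cy5 over Cy3 from the scanner signals (Pearson's r across probes 0.958 and 0.970), and it served as an alternative. Feature Extraction's flags were used, and its log ratios and p-values were not.

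Mean signals were background-corrected (normexp, offset 50), after which control spots and outlier spots (112 and 100) were left out. The remaining spots were loess-normalized per array at span 0.3 (limma 3.58.1, R 4.3.3) and averaged per probe. Channel intensities were set on 1 scale by Aquantile. Probes were kept where at least 0.5 of the spots were well above background in 1 channel on both arrays. Between 54.3% and 67.2% of gene spots were above background per channel, none was saturated, and the number of arrays limits precision. The brightest probe stood for a gene. Names came from a RefSeq table (13129 of 19218 genes matched; the others kept the array's name). The steps were tested on simulated data.

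Named genes were those the study discusses, SUB1, ACTB, GAPDH, the 15 largest increases and 15 largest decreases among genes with a symbol, and the 4 largest differences of each of 29 lists; a few others are marked in the text as picked later or are shown for their promoter, and some genes that the rule names are not reported here. The members and lists were chosen with earlier results of these data known. Alternatives were 14 set beforehand and 2 added after seeing the data (spike-in centring, and RPS10 and ANXA2 copies left out).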

Additional observations from a re-analysis of the deposited data

Results flagged for a closer look

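Of the genes at least 2-fold different, 68 had ratios on opposite sides of Non-T siRNA, each by more than 0.35 (3 SD of the Cy3 difference); 24 were higher and 44 lower with siRNA 2. Those among the genes named by rule, 17 of the 68, are given here. With 1 array per siRNA the difference was not tested. Higher with siRNA 2 and below Non-T siRNA with siRNA 1 were PNRC2 (difference 1.72), IL6 (1.68), TRIB3 (1.66), the phosphatase gene DUSP1 (1.49), the inhibitors of DNA binding ID3 (1.36) and ID1 (1.34), and PMAIP1 (1.12). Lower with siRNA 2 and above Non-T siRNA with siRNA 1 were PKIA (-2.11), SPARC (-1.97), SH3BP5 (-1.93), GATD1 (-1.93), CITED4 (-1.81), ALDH1A3 (-1.75), SORL1 (-1.73), the matrix protein gene TGFBI (-1.58), MT1F (-1.05) and the integrin subunit ITGB4 (-1.03; under 2-fold in 1 alternative).

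Lists whose medians lay on opposite sides of Non-T siRNA, each by more than 0.12 (1 SD of the Cy3 difference), were ATF4 stress (difference of medians by gene 0.37), endoplasmic reticulum chaperone (0.22), metallothionein (-0.84) and BCL2 family (0.15). These differences were not tested either.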

How the results depend on the processing

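No paired analysis was possible because each siRNA had 1 array, and for the same reason no replicate could be left out. Of the alternative counts of genes at least 2-fold different, 28 of 32 stayed within 1.5 times the counts given (125 higher, 117 lower). Feature Extraction's processed signals gave 638 higher and 536 lower; the cause was not tested. A bound of 3 SD of the Cy3 difference in the same intensity bin, which lies below 2-fold in every bin, gave 2052 higher and 2188 lower. Leaving out the copies of RPS10 and ANXA2 gave 115 higher. Over 13 alternatives the median of the interferon-stimulated list ran from 0.53 to 0.73, of mitosis from -0.38 to -0.23 and of DNA replication from -0.32 to -0.18. Of all 377 alternative list medians, 371 moved by less than 0.12 (1 SD of the Cy3 difference). Spike-in centring shifts every gene and list median by 0.11, so it stays under this bound by construction, although it gave 85 higher and 171 lower. Keeping outlier spots or changing the filter on dim probes left the counts at 125 and 117, so such alternatives test little. The ATF4 stress, metallothionein and MHC class I presentation lists kept their sign throughout, whereas 12 lists with medians near 0 changed sign in at least 1 alternative. Of 1868 alternative values of named genes, 1723 moved by less than 0.12, and no gene at 2-fold changed sign. SUB1 ran from -0.16 to 0.18. The dimmest probes carried the least resolution, since the Cy3 SD was highest there.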

Other observations

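Signalling genes outside the interferon and stress groups also differed in both directions. Of 19 measured YAP and TGF-beta target genes, 2 were at least 2-fold higher with siRNA 2 and 1 lower, against 0.650% and 0.609% of all genes. ID1 and ID3, inhibitors of differentiation factors, had ratios of -0.71 and -0.47 with siRNA 1 and 0.63 and 0.89 with siRNA 2, whereas TGFBI had 0.70 and -0.89 and the matricellular gene CCN2 0.10 and -0.58. Of the immediate early and MAPK feedback genes, DUSP1 (-0.58 and 0.92) and JUNB (0.19 and 1.48) were at least 2-fold higher, the latter at 0.91 as the mean of its probes, and the feedback inhibitors SPRY4 and SPRED1 had differences of -0.67 and -0.60, the latter -0.37 as the mean of its probes. In the integrin and laminin list, ITGB4 had -1.03 and LAMC1 -0.84, and ITGB1, whose 4 probes all had differences from 0.83 to 0.90, was lower with siRNA 1 (-1.08); its difference was 0.60 in Cy5 alone.

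Further secreted or surface factors were noticed after the values were seen. The trefoil factors went opposite ways, with ratios of 0.53 and -1.11 for TFF1 and -0.17 and 0.94 for TFF2. The urokinase gene PLAU had -0.51 and -1.85, the trypsin inhibitor SPINK1 -0.25 and 1.04, the stress cytokine GDF15 0.47 and 1.76, and the calcium-binding S100P 0.36 and 1.70. HMGA2, a chromatin architectural factor, had 2.50 with siRNA 1 and 0.89 with siRNA 2. IGFBP6 had -0.99 and 0.02.

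The 5 genes whose Cy3 signal differed at least 2-fold between the arrays were SOX8 (-1.86), DSP (-1.35), CCT3 (-1.16), ZNF493 (1.43) and 1 unnamed probe (1.03). In SOX8, DSP and ZNF493 the Cy5 signal moved with it, by -1.78, -1.77 and 1.61, and the ratio differences were 0.08, -0.42 and 0.18. In CCT3, a chaperonin subunit, Cy5 moved by -0.34 and the ratio difference was 0.83.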
